A study of Mus musculus with 27 samples.

Results

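Ribosomal protein pseudogenes are copies of ribosomal protein genes that carry the name of the gene they were copied from, here called the parent, with the ending -ps. The gene table of the fetal brain series held 322 rows named Rpl or Rps with -ps among 55416 rows, and the 83 copies described here are those with at least 10 reads in at least 3 of the 27 libraries. Of the other 239 rows, 58 had no read in any library. The copies comprised 42 named after proteins of the large ribosomal subunit and 41 named after proteins of the small subunit, from 46 parents. The read rule used the same libraries that are compared below, and 22 of the 83 copies would not have reached it without the AKR/J libraries, 14 of them not without the AKR/J d12 libraries, 7 copies not without the Cav1-null and 4 not without the C57BL/6J libraries. Counts of copies higher in a strain, or lower after d12 in AKR/J, are therefore partly fixed by the rule.

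The libraries came from whole fetal brains of 3 strains at gestational day (d) 12, d15 or d17. Each of the 9 combinations had 3 libraries, and the labels give every fetus as female. AKR/J is an inbred strain, C57BL/6J is an inbred strain, and B6.Cg-Cav1tm1Mls/J, called Cav1-null, is a congenic strain on the C57BL/6J background that carries a germline null allele of Cav1, the gene of the caveolar coat protein caveolin-1, and therefore lacks it in every cell type. No treatment is given in the labels, the RNA was selected by poly-T beads, and whether fetuses of a group shared a mother is not given in the sources used here, so p-values measure the spread between these libraries.

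Ribosomal protein genes encode the proteins of the cytosolic ribosome and are among the most highly expressed genes of growing cells. Their abundant mRNAs were often reverse-transcribed and inserted elsewhere in the genome, which left intronless copies that keep most of the mRNA sequence without the parent's promoter. Such copies usually have no known protein product, and short reads from a parent and a close copy can be hard to tell apart.

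On the GRCm39 assembly, which represents the C57BL/6J genome, each of the 83 copies was annotated with 1 exon. Of these, 61 were annotated as processed pseudogenes, 20 as transcribed processed pseudogenes and 2, Rpl9-ps6 and Rpl10-ps3, as protein-coding in the annotation used here. The copies lay on 20 chromosomes, and 5 lay on the chromosome of their parent. Their median length was 478 bases and their median identity to the parent mRNA was 98.98%, with a median of 5 mismatches. The 239 rows below the read rule had a median identity of 95.37% and a median of 20.5 mismatches. Of the 15 rows that matched the parent without a mismatch over at least 90% of their length, 10 were among the 83 copies, and of the 182 rows with over 10 mismatches, 23 were. Rpl13-ps1 and Rps7-ps2 stood apart from their names. Rpl13-ps1 shared no 12-base word with the mRNA of Rpl13 on its annotated strand but 410 of 657 words on the opposite strand, and Rps7-ps2 shared none of its 1336 words with Rps7 on either strand.

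The differences between the leading copies and their parents were few. The lines below give, for 6 of the 8 copies that the strain comparison turned on, the 100 bases of the parent's coding sequence that hold the most differences and the matching bases of the copy, from 5′ to 3′, with differing bases in capitals. Sequences are from the GRCm39 genome and its GENCODE annotation.
Rpsa: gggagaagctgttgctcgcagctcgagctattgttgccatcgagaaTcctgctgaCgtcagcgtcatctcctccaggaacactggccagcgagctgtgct
Rpsa-ps10: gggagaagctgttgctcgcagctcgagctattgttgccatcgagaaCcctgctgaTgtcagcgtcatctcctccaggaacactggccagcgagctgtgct
Rps7: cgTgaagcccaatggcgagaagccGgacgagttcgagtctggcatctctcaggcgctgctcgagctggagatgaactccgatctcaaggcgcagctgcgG
Rps7-ps3: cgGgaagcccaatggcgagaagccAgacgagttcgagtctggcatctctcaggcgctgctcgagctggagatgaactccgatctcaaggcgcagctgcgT
Rpl34: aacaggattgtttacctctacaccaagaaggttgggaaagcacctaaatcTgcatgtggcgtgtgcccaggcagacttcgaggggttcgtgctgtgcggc
Rpl34-ps1: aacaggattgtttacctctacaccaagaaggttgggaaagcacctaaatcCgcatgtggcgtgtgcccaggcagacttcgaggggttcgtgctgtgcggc
Rpl3: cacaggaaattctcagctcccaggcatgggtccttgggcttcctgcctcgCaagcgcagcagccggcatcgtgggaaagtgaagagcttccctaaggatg
Rpl3-ps1: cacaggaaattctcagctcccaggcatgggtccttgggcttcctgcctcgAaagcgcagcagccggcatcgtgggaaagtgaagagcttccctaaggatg
Rpl14: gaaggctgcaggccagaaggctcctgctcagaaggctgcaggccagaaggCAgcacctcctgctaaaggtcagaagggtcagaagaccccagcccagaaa
Rpl14-ps1: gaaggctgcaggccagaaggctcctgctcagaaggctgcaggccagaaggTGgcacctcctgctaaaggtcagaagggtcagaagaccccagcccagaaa
Rps18: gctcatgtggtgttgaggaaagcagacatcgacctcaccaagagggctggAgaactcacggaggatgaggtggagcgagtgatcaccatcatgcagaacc
Rps18-ps5: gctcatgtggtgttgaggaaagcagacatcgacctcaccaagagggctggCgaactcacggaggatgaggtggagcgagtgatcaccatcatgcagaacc
The Rpsa-ps10 window lay on the minus strand of chr3:149778917-149779016 and held 2 of the 6 mismatches between the copy and the mRNA of Rpsa. The Rps7-ps3 window lay on the minus strand of chrX:151692994-151693093 and held all 3 mismatches to Rps7. The windows of the other 4 copies lay on the plus strand, Rpl34-ps1 at chr6:71101675-71101774, Rpl3-ps1 at chrX:13068817-13068916, Rpl14-ps1 at chr7:44974904-44975003 and Rps18-ps5 at chr13:28441739-28441838. Rpl34-ps1 and Rpl3-ps1 had 2 mismatches each over their whole length. Rpl14-ps1 had 4 mismatches and 1 gap over its whole length, and Rps18-ps5 had 4 mismatches over the 89% of its length that aligned.

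The libraries held 26363697 to 39759702 reads. Of 6 neuron markers, Tubb3 was at 352 to 1890 and Map2 at 558 to 1700 CPM, the reads scaled to the TMM-normalised library size. Dcx was at 326 to 2120, Stmn2 at 291 to 1370, Snap25 at 33.4 to 237 and Neurod6 at 0.518 to 450 CPM. Cav1 was at 9.42 to 33.7 CPM in AKR/J, 10.5 to 41.1 in C57BL/6J and 0 to 0.503 in Cav1-null libraries. The 3 AKR/J d12 libraries stood apart. Ribosomal protein genes took 18.15%, 7.656% and 15.29% of their reads, against 1.778% to 5.18% in the other 24 libraries, and the summed level of 9 erythroid markers, led by Hbb-y, was 34110 to 201400 CPM there against 563.7 to 18210 CPM elsewhere. The summed level of 6 neuron markers was 1729 to 2160 CPM there and 3218 to 6881 CPM elsewhere. The summed radial glia and progenitor markers were at 3557, 2055 and 4219 CPM there and at 1010 to 2124 CPM elsewhere. The summed trophoblast and decidua markers reached 688.6 CPM and the summed yolk sac markers 1710 CPM in the first of these libraries, while Prl3c1 was at most 0.33 CPM in any library. The trophoblast and decidua sum was 75.84 and 28.22 CPM in the second and the third AKR/J d12 library. It was 50.49 CPM in the third C57BL/6J d12 library and at most 5.408 CPM in the rest. The part of these cells in the results was not tested, and in bulk RNA fewer cells of a type and less RNA per cell cannot be told apart. The C57BL/6J libraries were not uniform. Of 31 genes with at least 10 reads in each AKR/J library and at most 3 in each Cav1-null library, 11 to 20 had at least 10 reads in single C57BL/6J libraries, and of 15 genes with the reverse pattern, 8 to 14 did. Whether these fetuses were of pure C57BL/6J parentage cannot be told from the sources used here, so C57BL/6J below means the libraries with that label, and each value over or within C57BL/6J carries this limit. Values of C57BL/6J are therefore given library by library, and AKR/J over Cav1-null, a comparison that uses no C57BL/6J library, is given beside those that do.

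For each copy the share was computed as the reads on the copy over the reads on the copy and its parent, without correction for length. In 8 copies, chosen after their values were seen for the difference of this share between AKR/J and Cav1-null, the median share in AKR/J was 13.5 to 1053 times that in Cav1-null, the largest ratios of the 83 copies, and the next copy, Rpl34-ps2, had a ratio of 13.06. They are Rpsa-ps10, Rps2-ps10, Rps7-ps3, Rpl34-ps1, Rpl17-ps5, Rpl3-ps1, Rpl14-ps1 and Rps18-ps5, and 7 of them reached the read rule without the AKR/J libraries. The difference of these 8 between AKR/J and the other strains is therefore a description. Of all reads on the 83 copies, 88.52% fell on the 8, but they are not the 8 with the most reads, since Rpl38-ps2, Rps10-ps2, Rpl19-ps11 and Rpl10a-ps1 had a higher mean CPM than Rps18-ps5. In each AKR/J library the 8 copies took 91.45% to 94.71% of the reads on copies, in each Cav1-null library 8.146% to 10.78%, and in the C57BL/6J libraries 23.7% to 91.1%. The other 75 copies together had 1459 to 8975 reads in an AKR/J library, 723 to 1494 in a C57BL/6J library and 1164 to 1778 in a Cav1-null library. The plot of shares by library shows these 8 copies.

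**Figure D1:**
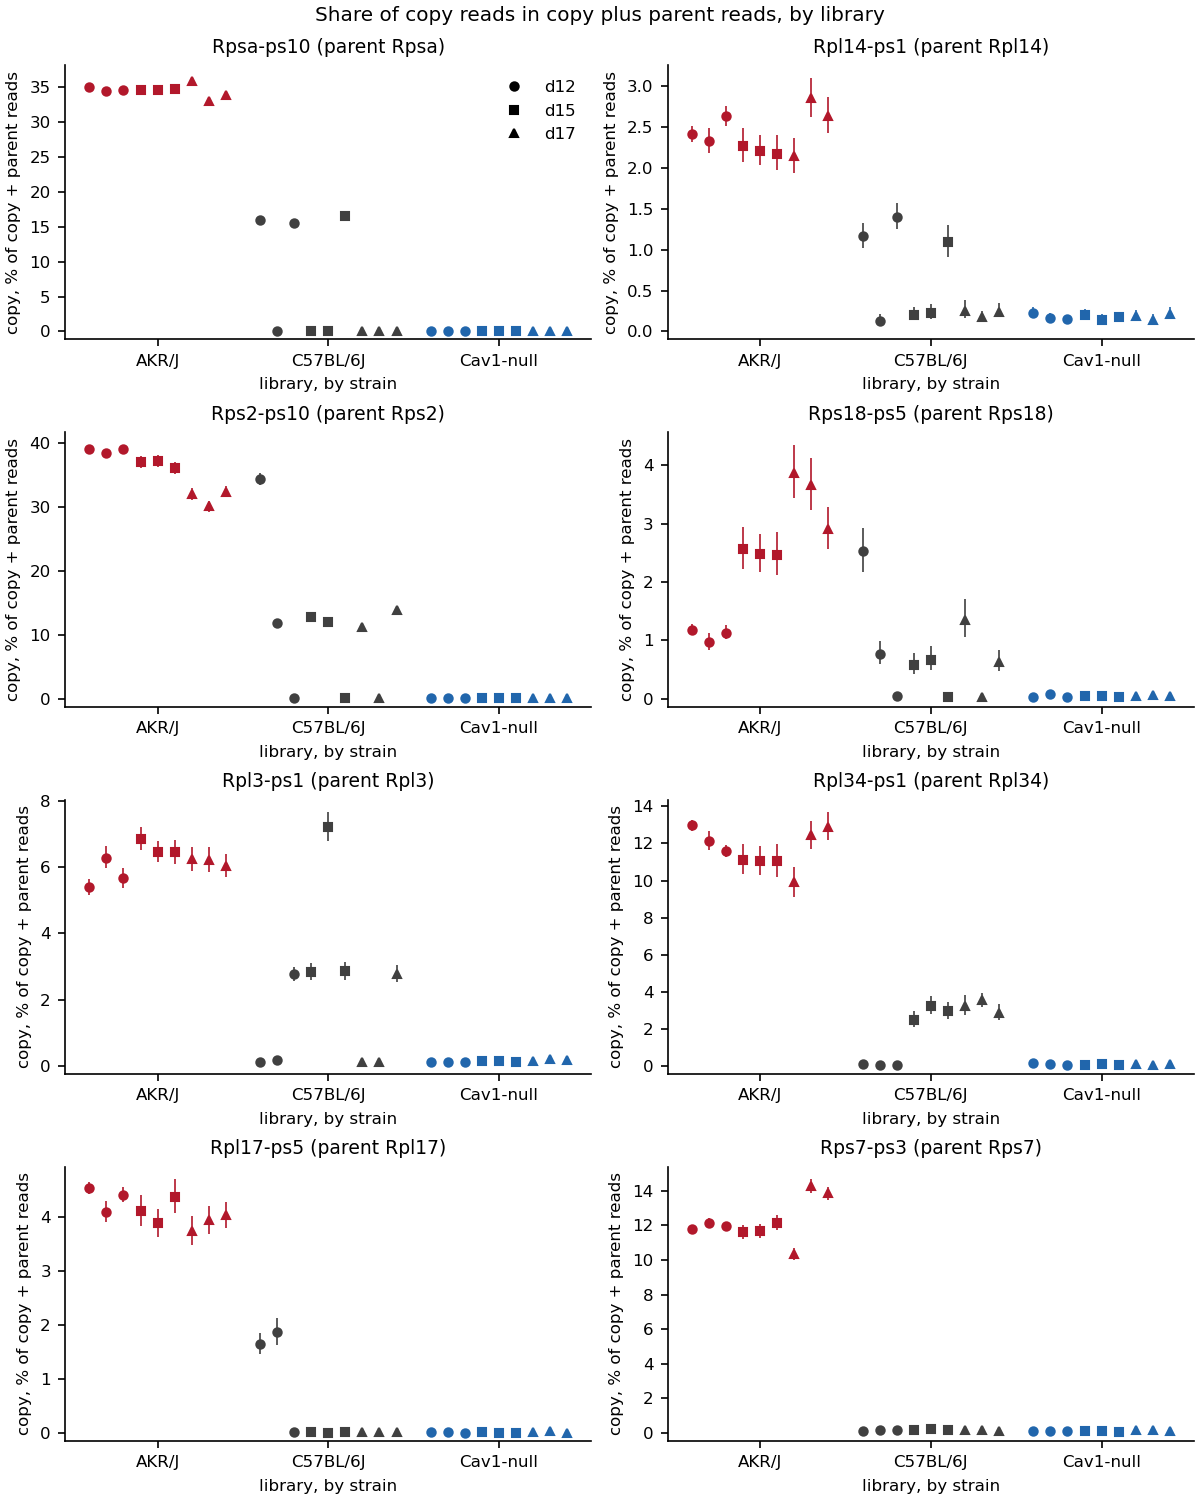
Each panel plots 1 copy, with the libraries by strain along the x axis and the share of copy reads (percent of copy plus parent reads, linear axis) on the y axis; bars are 95% Wilson intervals, and circles, squares and triangles are d12, d15 and d17. The AKR/J libraries lie above all Cav1-null libraries in each panel, for which the copies were chosen, and the C57BL/6J libraries lie at several levels, except for Rps7-ps3, where all 9 are at 0.0986% to 0.218%.

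Rpsa-ps10 lay on chr3:149778295-149779179, minus strand, and its parent Rpsa, which encodes the small subunit protein also known as the laminin receptor, on chromosome 9. Rpsa-ps10 had 11330 to 41596 reads in the AKR/J libraries and 13 to 27 reads in the Cav1-null libraries. Its share was 35.0%, 34.4% and 34.6% in the AKR/J d12 libraries, 34.6%, 34.5% and 34.6% on d15, and 35.8%, 32.9% and 33.8% on d17. In Cav1-null libraries the share was 0.0242% to 0.0472%. The C57BL/6J libraries had shares of 16.0%, 0.0491% and 15.5% on d12, 0.0169%, 0.0236% and 16.5% on d15, and 0.0274%, 0.0268% and 0.0356% on d17. The AKR/J shares thus hardly varied, whereas within C57BL/6J replicates of the same day lay either near the Cav1-null level or at 15.5% to 16.5%. At this depth the counting intervals of such shares did not overlap: on d15, 16.02% to 16.98% in the third C57BL/6J library and 0.00722% to 0.0396% in the first. The intervals cover counting error only.

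Rpl14-ps1 lay in an intron of Trpm4 on the opposite strand, at chr7:44974389-44975041, and its parent Rpl14, a large subunit protein gene, lay on chromosome 9, as Rpsa does. Its share was 2.15% to 2.86% in AKR/J and 0.139% to 0.226% in Cav1-null libraries. In C57BL/6J it was 1.16%, 0.132% and 1.41% on d12, 0.202%, 0.226% and 1.09% on d15, and 0.250%, 0.181% and 0.244% on d17. The libraries with the high Rpl14-ps1 values, the first and the third of d12 and the third of d15, were the same libraries in which Rpsa-ps10 was high.

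Rps2-ps10 is named after Rps2, a small subunit protein gene on chromosome 17. Its share was 39.0%, 38.3% and 39.0% in AKR/J on d12, 37.0%, 37.1% and 36.1% on d15, and 32.0%, 30.1% and 32.3% on d17. In Cav1-null libraries it was 0.0300% to 0.0693%. The C57BL/6J libraries had 34.3%, 11.8% and 0.0480% on d12, 12.8%, 12.0% and 0.0800% on d15, and 11.2%, 0.0641% and 13.8% on d17. The parent Rps2 was at 208.6, 326.4 and 737.4 CPM in the C57BL/6J d12 libraries, at 272.1, 266.0 and 402.1 CPM on d15 and at 273.2, 642.5 and 346.7 CPM on d17. On each day the C57BL/6J library with the lowest Rps2-ps10 share had the highest Rps2 level. In AKR/J, Rps2 was at 201.7 to 1043 CPM, with a median of 273.2 CPM, and in Cav1-null at 552.5 to 775.6 CPM, with a median of 721.3 CPM.

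Rps18-ps5 lay on chr13:28441511-28442117, and its parent Rps18, which encodes a protein of the head of the small subunit, lay on chromosome 17, as Rps2 does. Its share in AKR/J was 1.18%, 0.964% and 1.13% on d12, 2.56%, 2.47% and 2.45% on d15 and 3.87%, 3.66% and 2.91% on d17, and in Cav1-null it was 0.0250% to 0.0733%. In C57BL/6J it was 2.52%, 0.765% and 0.0405% on d12, 0.573%, 0.664% and 0.0234% on d15, and 1.35%, 0.0326% and 0.627% on d17. The third library of d12, the third of d15 and the second of d17 were low for Rps18-ps5, and they were low for Rps2-ps10 as well. The 2 copies lie on different chromosomes from each other.

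Rpl3-ps1, at chrX:13068810-13070019, is a copy of Rpl3, whose protein lies near the peptidyl transferase centre of the large subunit. Its share was 5.40% to 6.86% in AKR/J and 0.0979% to 0.189% in Cav1-null libraries. In C57BL/6J it was 0.108%, 0.161% and 2.76% on d12, 2.83%, 7.21% and 2.86% on d15, and 0.0982%, 0.111% and 2.77% on d17. The second C57BL/6J library of d15 thus lay above all AKR/J libraries, 4 others lay between the strains and the remaining 4 lay at the Cav1-null level. This division of the C57BL/6J libraries was not the one seen for Rpsa-ps10 or for Rps2-ps10.

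Rpl34-ps1, at chr6:71101594-71101947, is a copy of the large subunit protein gene Rpl34 on chromosome 3. Its share was 9.90% to 13.0% in AKR/J and 0.0271% to 0.126% in Cav1-null libraries. In C57BL/6J it was 0.0686%, 0.0550% and 0.0586% on d12, 2.48%, 3.25% and 2.96% on d15, and 3.21%, 3.53% and 2.87% on d17. For this copy the C57BL/6J libraries were alike within a day and separated d12 from the later days.

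Rpl17-ps5, at chr5:22817626-22818180, is a copy of the large subunit protein gene Rpl17. Its share was 3.74% to 4.54% in AKR/J and 0.00327% to 0.0314% in Cav1-null libraries, where it had 1 to 5 reads. The C57BL/6J libraries had 261, 223 and 3 reads on d12, 1, 0 and 1 on d15 and 2, 2 and 1 on d17. The library without a read had 11735 reads on Rpl17, which allows a share of up to 0.0256%. Rps7-ps3, at chrX:151692535-151693116, is a copy of the small subunit protein gene Rps7 on chromosome 12. It had 2530 to 21301 reads in AKR/J, 17 to 36 in C57BL/6J and 25 to 48 in Cav1-null libraries, and its share was 10.3% to 14.3% in AKR/J and at most 0.218% in the other strains. For this copy the C57BL/6J and Cav1-null ranges overlapped.

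AKR/J and Cav1-null were compared to ask how the short-lived inbred strain differed from the short-lived congenic one. The 8 leading copies were chosen for this difference, so their values are given without a test, beside those of their parents, which differed by -1.05 to 0.65. Rpsa-ps10 had a median of 506 CPM in AKR/J and 0.503 CPM in Cav1-null, a log2 fold change of 10.25 (SE 0.21), beside -0.35 (adjusted p = 0.0632) for Rpsa. Rpl17-ps5, which reached the read rule only through AKR/J libraries, was at 9.31 (SE 0.35) and Rps2-ps10 at 9.11 (SE 0.24), beside 0.45 for Rpl17 (adjusted p = 0.0661) and -1.05 for Rps2 (adjusted p = 3.5e-05). Rps7-ps3 was at 7.46 (SE 0.26) and Rpl34-ps1 at 6.81 (SE 0.33), beside 0.65 for Rps7 and -0.69 for Rpl34. Rpl3-ps1 was at 5.49 (SE 0.12), Rps18-ps5 at 5.11 (SE 0.29) and Rpl14-ps1 at 4.44 (SE 0.22), beside -0.09, -0.44 and 0.65 for Rpl3, Rps18 and Rpl14. Without the d12 libraries, Rpsa-ps10 was at 9.78 (SE 0.09), Rps7-ps3 at 6.62 (SE 0.16) and Rpl14-ps1 at 3.80 (SE 0.18).

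Over all copies that could be tested in this comparison, 36 of 76 were higher in AKR/J and 4 were lower, while 30.4% of all genes tested were called in either direction, 14.1% higher and 16.3% lower. Of the 4 lower copies, Rpl26-ps4, Rpl13-ps1, Rpl10-ps6 and Rpl29-ps2, the first 2 would not have reached the read rule without the Cav1-null libraries, which fixes their direction. The median log2 fold change was 0.90 over the 76 copies, 0.73 over 79 cytosolic ribosomal protein genes, of which 64 were higher and 6 lower, and 0.00 over all genes. Without d12, 10 of 53 copies were higher and 2 lower, where 12.1% of all genes tested were higher and 11.6% lower, the median was 0.15, and 2 of the 79 ribosomal protein genes were higher and 12 lower. Besides the 8 copies, Rps19-ps3 (1.08, SE 0.15) and Rpl19-ps11 (0.97, SE 0.23) were higher without d12, and Rpl29-ps2 (-2.98, SE 0.69) and Rpl13-ps1 (-2.03, SE 0.61), the latter admitted through the Cav1-null libraries, were lower. Without regard to any test, 10 of the 76 copies had CPM values that did not overlap between the 9 AKR/J and 9 Cav1-null libraries, against 2.08% of all genes tested. These were the 8 copies chosen for this difference, Rps19-ps3 and Rpl31-ps15, of which Rpl17-ps5 and Rpl31-ps15 reached the read rule only through AKR/J libraries. Rpl31-ps15 had 6 to 35 reads in AKR/J and 0 to 2 in Cav1-null libraries.

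**Figure D2:**
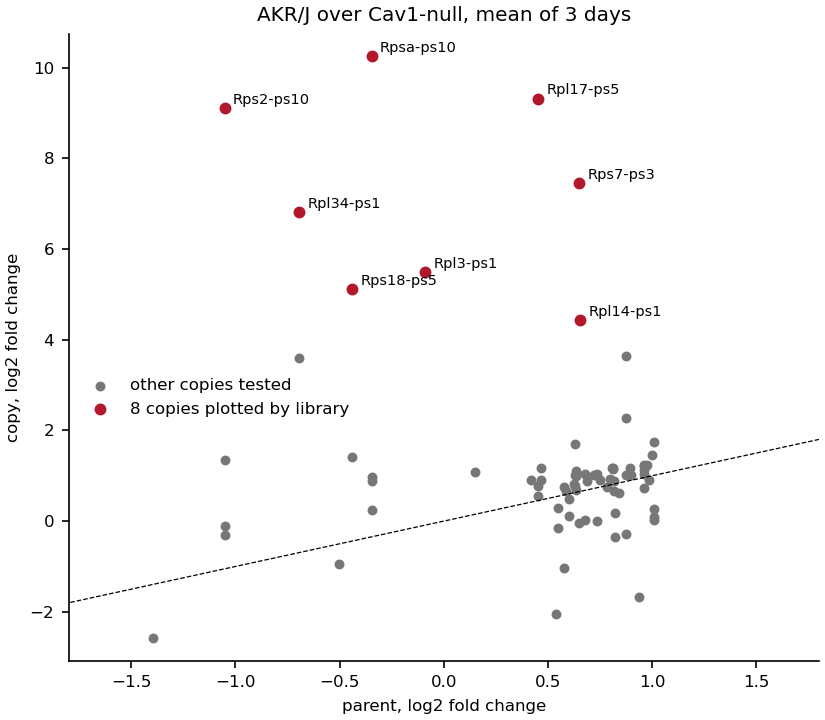
The y axis is the log2 fold change of each copy between AKR/J and Cav1-null (mean of 3 days, 18 libraries) and the x axis that of its parent; the dashed line marks equal change. The 8 leading copies lie at 4.44 to 10.25 above parents at -1.05 to 0.65, and most other copies lie within 1 log2 unit of the line.

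Of the 76 copies, 54 had a log2 fold change within 1 unit of their parent's. Rpl38-ps2, an identical copy of part of the mRNA of Rpl38, a large subunit protein gene known for its role in patterning the axial skeleton, took 2.56% to 4.08% of the joint reads in AKR/J, 2.69% to 3.20% in C57BL/6J and 2.62% to 3.44% in Cav1-null libraries. Its log2 fold change between AKR/J and Cav1-null was 0.91 (SE 0.24, adjusted p = 0.00787) beside 0.75 for Rpl38, and it was -0.03 without d12 (adjusted p = 0.937). Rpl10a-ps1, also without a mismatch, took 0.833% to 1.41% in AKR/J, 0.706% to 1.11% in C57BL/6J and 0.835% to 1.21% in Cav1-null libraries. Both copies thus held nearly the same share in all 3 strains.

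The read table held 13 further copies named after the parents of the 8 leading copies, among them Rps7-ps2, whose sequence did not match Rps7. Of these, 11 could be tested, 4 were higher in AKR/J than in Cav1-null and 0 were lower, where 14.1% of all genes tested were higher and 16.3% lower. The called copies were Rps18-ps3 (1.42, SE 0.36, adjusted p = 0.00637), Rpsa-ps9 (0.97, SE 0.32, adjusted p = 0.03), Rps2-ps6 (1.35, SE 0.47) and Rpl34-ps2 (3.60, SE 0.68). Rps2-ps6 and Rpl34-ps2 reached the read rule only through AKR/J libraries, which fixes their direction. Rps2-ps6 took 0.0465% to 0.207% in AKR/J and 0% to 0.0390% in Cav1-null libraries, and Rpl34-ps2 took 0.0222% to 0.199% and 0% to 0.0231%. Of the 7 copies that were not called, 3 had values below 0, Rps2-ps9 (-0.31, SE 0.33), Rps2-ps11 (-0.10, SE 0.22) and Rps7-ps2 (-0.05, SE 0.49). Without d12, Rps18-ps3 (0.75, adjusted p = 0.166) and Rpsa-ps9 (0.20, adjusted p = 0.658) were not called, and Rps2-ps6 and Rpl34-ps2 had too few reads to be tested. Reads on such copies cannot be told apart from reads of the leading copy or the parent in the counts, since Rps2-ps10 had 24 other places in the genome at 95% identity or more, Rpl17-ps5 had 18 and Rpsa-ps10 had 9. Rpl14-ps1 had 0 such places.

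The comparison of AKR/J with C57BL/6J asked how the short-lived inbred strain differed from the long-lived one. Of 73 copies tested, 55 were higher in AKR/J and 0 lower, where 47.9% of all genes tested were called, 20.3% higher and 27.6% lower. The median log2 fold change was 1.56 over the copies and 1.43 over the 79 ribosomal protein genes, of which 74 were higher. Without d12, 26 of 51 copies were higher, with a median of 0.93, where 17.2% of all genes tested were. With at least 10 reads required in every library 13 of 14 were, against 27.5% of all genes tested. The called copies with the largest change were Rps7-ps3 (8.02, SE 0.29), Rpl17-ps5 (7.98, SE 0.62), Rpsa-ps10 (5.79, SE 1.06) and Rpl34-ps1 (4.57, SE 0.30). Rpl14-ps1 (3.64, SE 0.43), Rpl31-ps9 (3.31, SE 0.74), Rpl34-ps2 (2.90, SE 0.62), Rpl31-ps15 (2.81, SE 0.56), Rps18-ps5 (2.81, SE 0.54) and Rps2-ps10 (2.498, SE 0.78) followed. The leading copies among them were chosen for their level in the same AKR/J libraries, so their values are a description. The SE was larger for the copies whose C57BL/6J libraries lay at several levels than for Rps7-ps3. Rps2-ps10 was not called without d12 (2.17, adjusted p = 0.0543). Rpl17-ps5, Rpl31-ps9, Rpl34-ps2 and Rpl31-ps15 reached the read rule only through AKR/J libraries, so that their place in this order is a description. Rpl31-ps9 and Rpl34-ps2 had few reads, at most 41 and 39 in a library.

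Cav1-null was compared with C57BL/6J, the labelled background strain of the congenic mice. Of 56 copies tested, 25 were higher in Cav1-null and 5 lower, where 45.1% of all genes tested were called, 20.3% higher and 24.8% lower. Of the 79 ribosomal protein genes, 77 were higher, with a median log2 fold change of 0.77, and the median over the copies was 0.61. The 5 lower copies were Rps2-ps10 (-6.62, SE 1.05), Rpsa-ps10 (-4.45, SE 1.503), Rpl3-ps1 (-3.11, SE 0.68), Rps18-ps5 (-2.30, SE 0.60) and Rpl34-ps1 (-2.23, SE 0.29), and each of their parents was higher, by 0.50 for Rpl3 up to 1.31 for Rpl34. These 5 are among the leading copies, chosen with the same Cav1-null libraries, so their values are a description. The call of Rpsa-ps10 rested on single C57BL/6J libraries. Its value was -1.83 (adjusted p = 0.195) without the third of d15 and -2.73 (adjusted p = 0.151) without d12, and the call was also lost without any 1 of the d17 libraries, with little change in size. Among the higher copies the largest changes were of Rpl26-ps4 (2.89, SE 0.61), Rpl10-ps6 (1.47, SE 0.35), Rpl22-ps1 (1.37, SE 0.53), Rpl17-ps10 (1.17, SE 0.24) and Rpl13-ps1 (1.14, SE 0.32), all with few reads. Rpl26-ps4 and Rpl13-ps1 would not have reached the read rule without the Cav1-null libraries, so that their direction is fixed by it. The call of Rpl22-ps1 was lost in 14 alternatives, with values of 1.16 to 1.42, and that of Rpl13-ps1 in 2. The copies called lower were thus all leading copies, and no contrast with the ribosomal protein genes is drawn from them.

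Between d12 and d15 in AKR/J, 38 of 62 copies fell and 0 rose, where 28.9% of all genes tested were called, 14.8% higher and 14% lower. Of the 62 copies, 8 reached the read rule only through the AKR/J d12 libraries, and 6 of these were among the 38. The ribosomal protein genes fell as well, 76 of 79, with a median log2 fold change of -2.51, beside -2.17 over the copies. Rpl39-ps, a copy of the large subunit gene Rpl39, fell the most among the called copies (-3.60, SE 0.72, adjusted p = 0.0085), beside -3.60 for Rpl39. It had 190, 50 and 205 reads on d12 and 21, 9 and 23 on d15, so that the second d12 library lay nearer to d15. The number of falling copies was 55 without that second d12 library, 22 and 24 without the first and the third d12 library, and 22, 26 and 15 without the first, the second and the third d15 library. The share of all genes called in these fits is not given here, so the counts show nothing particular to the copies.

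The 23 copies with 0 to 2 mismatches to their parent had a median change of -2.70 between these days, beside -2.70 for their parents, and each lay within 1 log2 unit of its parent. Of the 25 copies with 3 to 10 mismatches in this grouping, 20 did. Of the 13 copies with over 10 mismatches, 9 did, with a median of -1.09 beside -1.87 for their parents. The leading copy Rps18-ps5, with 4 mismatches over the 89% of its length that aligned, was left out of these groups. It lay 1.16 log2 units above its parent. Over all 62 copies tested, 52 lay within 1 log2 unit of their parent. Rps19-ps3, with 14 mismatches to Rps19, the small subunit gene that is mutated in Diamond-Blackfan anemia, had 144, 139 and 111 reads on d12 and 151, 143 and 136 on d15, a change of -0.31 (SE 0.27, adjusted p = 0.426) beside -2.73 for Rps19. Rps12-ps26 (-0.02, SE 0.75), Rps2-ps11 (0.01, SE 0.49) and Rps13-ps4 (0.48, SE 0.53) likewise did not pass the test, beside -3.06 for Rps12, -1.83 for Rps2 and -2.33 for Rps13. These 4 copies were chosen after their values were seen. Rps10-ps2 fell by 2.56 (SE 0.48) on the log2 scale, beside -0.80 (adjusted p = 0.0569) for the small subunit gene Rps10. Rps10-ps1 had 43, 15 and 26 reads on d12 and 6, 5 and 6 on d15, and it reached the read rule only through those d12 libraries, which fixes its direction.

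**Figure D3:**
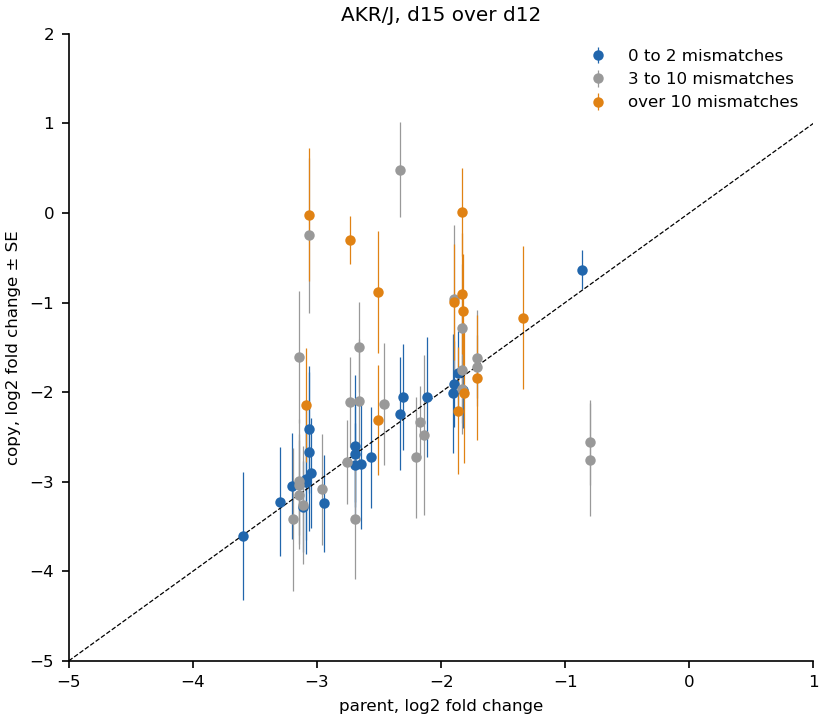
Each point is 1 copy, with its log2 fold change between d15 and d12 in AKR/J (3 against 3 libraries) on the y axis with its SE and that of its parent on the x axis; colours give the number of mismatches and the dashed line marks equal change. Copies with 0 to 2 mismatches lie from 0.648 above the line to -0.298 from it, and Rps10-ps1 and Rps10-ps2, at a parent change of -0.80, lie below it.

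Of the 8 leading copies, 6 fell between d12 and d15 in AKR/J, as did 38 of the 62 copies tested and 14% of all genes tested. Rpsa-ps10 fell by 1.72 (SE 0.35) on the log2 scale beside -1.71 for Rpsa, Rps7-ps3 fell by 2.78 (SE 0.47) beside -2.76 for Rps7, and Rpl34-ps1 fell by 3.28 (SE 0.51) beside -3.11 for Rpl34. Rps18-ps5 (-1.4996, SE 0.5012, adjusted p = 0.0554) and Rpl3-ps1 (-0.63, SE 0.22, adjusted p = 0.0591) did not pass the test, beside -2.66 for Rps18 and -0.86 for Rpl3. Between d15 and d17 in AKR/J, 3 of 46 copies were called, 2 higher and 1 lower, where 22.1% of all genes tested were called, 11.6% higher and 10.4% lower. Rps7-ps3 rose by 0.60 (SE 0.18, adjusted p = 0.0424), beside 0.44 for Rps7 (adjusted p = 0.0238). Rpsa-ps10 rose by 0.35 (SE 0.10, adjusted p = 0.0333), beside 0.38 for Rpsa (adjusted p = 0.0512). Rpl19-ps7, with 7 to 30 reads in these libraries, fell by 1.43 (SE 0.42, adjusted p = 0.044), beside 0.32 for Rpl19 (adjusted p = 0.141). The number called was 0 without the first d15 library, the second d17 library or the third d17 library, 1 without the third d15 library and 6 without the first d17 library.

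In C57BL/6J, 1 of 35 copies was called between d12 and d15, where 14.9% of all genes tested were, 7.08% higher and 7.8% lower. Rpl34-ps1 had 9, 5 and 8 reads on d12 and 136, 163 and 146 on d15, and it was higher on d15 by 4.12 (SE 0.32, adjusted p = 0.00818) on the log2 scale, while its parent Rpl34 was lower by 1.46 (adjusted p = 0.016). Its d12 shares, 0.0550% to 0.0686%, lay within the Cav1-null range of 0.0271% to 0.126%. As the parentage of these fetuses is not known, a change with the day and a difference in genotype between the d12 and the d15 libraries cannot be told apart. The libraries of the 2 days did not overlap. Of the 79 ribosomal protein genes, 63 fell and 0 rose between these days. The call was lost without the second d15 library (4.05, adjusted p = 0.0686) and without the third (4.14), with little change in size, and the number of copies called was 4 without the second d12 library and 3 without the third. Rpl3-ps1 (1.28, SE 1.14, adjusted p = 0.454) and Rpsa-ps10 (-1.85, SE 2.15, adjusted p = 0.572) did not pass the test and had large errors, as the replicates lay at different levels. Between d15 and d17 in C57BL/6J, 0 of 29 copies were called by edgeR, where 13% of all genes tested were called, 7.46% higher and 5.58% lower, 4 had an unadjusted p under 0.05, and DESeq2 called 2. Without the first d17 library edgeR called 4, and without the third it called 1.

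**Figure D4:**
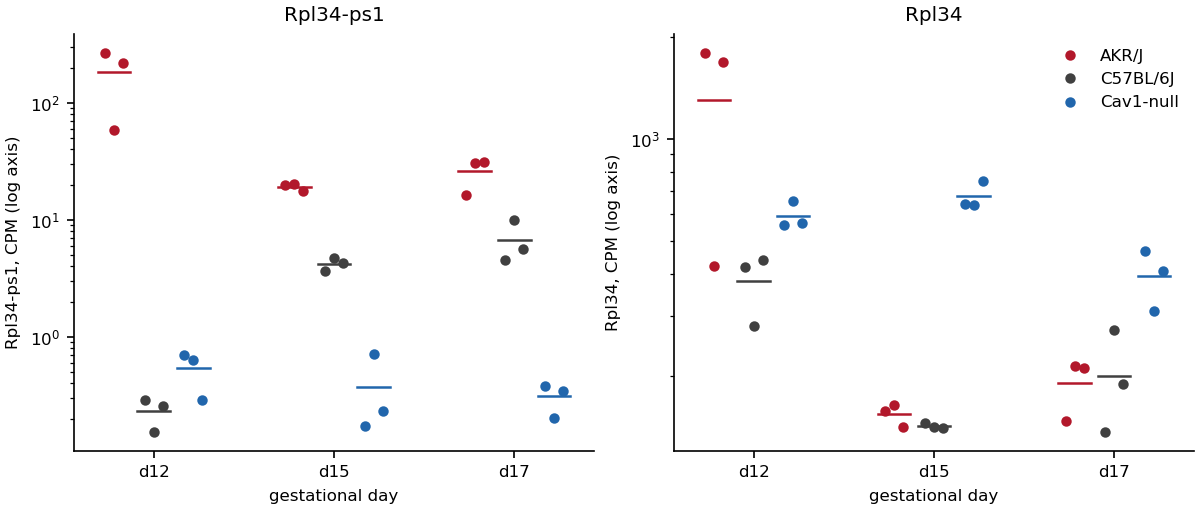
The left panel gives Rpl34-ps1 and the right panel Rpl34 in CPM on log axes, by gestational day, with 1 point per library, short lines for the mean of 3 libraries and colours for the strains. In C57BL/6J the copy is at 0.154 to 0.288 CPM on d12 and at 3.68 to 4.74 CPM on d15, whereas Rpl34 is lower on d15.

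In Cav1-null, 0 of 46 copies were called by edgeR between d12 and d15, where 23.4% of all genes tested were, 11.6% higher and 11.8% lower. Of these copies 1 had an unadjusted p under 0.05, and DESeq2 called 0. All 46 lay within 1 log2 unit of their parent. Between d15 and d17, 2 of 44 copies were called, where 27.3% of all genes tested were, 14.5% higher and 12.8% lower. Rps19-ps6 had 17, 12 and 15 reads on d15 and 44, 30 and 40 on d17 and rose by 1.34 (SE 0.38, adjusted p = 0.0175), while Rps19 fell by 0.42. Rpl38-ps2 fell by 0.61 (SE 0.17, adjusted p = 0.0157), beside -0.77 for Rpl38. Of the 79 ribosomal protein genes, 71 fell between these days. The number of copies called was 0 without the second d15 or the third d17 library and 1 without the first d15, the first d17 or the second d17 library.

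Whether the difference between AKR/J and C57BL/6J changed with the day was tested by the interaction of strain and day. Of 73 copies, 8 were called, where 4.02% of all genes tested were, and 34 of the 79 ribosomal protein genes were called in the same test. Of the 8 copies, Rpl34-ps1 had the smallest adjusted p, 4.149e-04. It was higher in AKR/J by 9.59 on d12, 2.17 on d15 and 1.96 on d17 on the log2 scale, beside 1.78, 0.11 and -0.05 for Rpl34. The number called was 30 without the second AKR/J d12 library and 4 without the second AKR/J d15 library, and it was 1 without each of 14 other libraries of the 18, the first and the third AKR/J d12 libraries among them.

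Many of the copies lay within other genes. Of the 83, 54 lay inside or over a protein-coding gene or a gene of long non-coding RNA. A protein-coding gene was overlapped by 36, with 27 wholly in its introns and 9 touching an exon, 12 on its strand and 24 on the opposite strand. Rpsa-ps10 touched an exon of Gm64703 and Rps7-ps3 an exon of Gm61310. Rps2-ps10 lay in an intron of Pde6a and also touched an exon of Gm58349. The splice table listed 39 junctions under 30 of the copies, and each of the 39 spanned the whole copy, as an intron of a host gene does. Rps19-ps3, which had such a junction, lay in no host gene of the annotation used here. No junction within a copy was listed, in a table from which the authors had removed junctions with multi-mapped reads, short overhangs or few reads. For the gene counts, how the counting treated strands and reads with several matches is not given in the sources used here, so reads of a host's unspliced RNA, of the parent and of a copy cannot be told apart.

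The read rule's threshold fell among copies with similar values. The 8 copies just inside it, with at least 10 reads in exactly 3 libraries, had mean counts from 4.148 for Rpl31-ps9 and Rpl35a-ps7 to 7.593 for Rps10-ps1. The 14 rows just outside it, with at least 10 reads in exactly 2 libraries, had mean counts from 1.963 for Rpl17-ps4 to 6.37 for Rpl5-ps1. No copy had at least 10 reads in 6 or more libraries of 1 strain and at most 3 reads in each library of another. Rpl17-ps5 had up to 5 reads and Rpsa-ps10 at least 13 reads in a Cav1-null library.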

How the data were processed

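RNA of whole fetal brain was sequenced of 3 mouse strains, and 2 tables of the whole series were used. The authors mapped reads to GRCm39 with STAR and deposited raw read counts per Ensembl gene, without normalization, and junction read counts, from which junctions with multi-mapped reads had been removed. The submitters' processing notes also name FastQC, cutadapt, fastp, edgeR and bedtools. For gene counts, the counting tool and how it treated strands and multi-mapped reads are not given in the sources used here.

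Groups were taken from the labels' strain and day. Counts were tested in R 4.3.3 with edgeR 4.0.16 (filterByExpr, TMM, quasi-likelihood test), with 18 libraries for strain comparisons as the mean over days and 6 for comparisons of days, with calls at p under 0.05 after Benjamini-Hochberg adjustment over all genes tested. SEs were derived from the log2 fold change and its F statistic. Log2 fold changes of copies with few reads depend on the prior count and are no bounds. CPM used TMM factors over 27 libraries. Shares have Wilson intervals (95%, scipy 1.17.1). A count of 0 was given the limit of 3 reads. Parents were taken from the name before -ps and aligned with Biopython 1.88 to the best-matching transcript, and places at 95% identity were found with blastn 2.17.0. In simulated data for AKR/J over C57BL/6J, with 22353 genes, 67% of genes changed by 1 log2 unit and 88% of those changed by 2 were recovered, and 5.49% of calls were false. For C57BL/6J d15 over d12, with 19154 genes, these were 44%, 83% and 10.6%.

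The members and lists were chosen with earlier results of these data known. The named copies were those with the 10 largest changes among calls in AKR/J over C57BL/6J and in Cav1-null over C57BL/6J, the largest rise and fall in each comparison of days, the 8 with the highest mean CPM, those at the threshold, those called in strain by day, and their parents. Alternatives were DESeq2 1.42.0, RLE size factors, library sizes alone, no filter, 10 or more reads required in each library, 1 joint model of 27 libraries, a replicate block, leaving out d12 and leaving out each library.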

Additional observations from a re-analysis of the deposited data

Results flagged for a closer look

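The difference between AKR/J and C57BL/6J changed with the day for 8 copies by the interaction test of edgeR, on 18 libraries. With the replicate block, and without any 1 of 14 of the 18 libraries, 1 copy was called, Rpl34-ps1, so that the calls of the other 7 were lost there. The limit on the parentage of the C57BL/6J fetuses applies to each value. The log2 fold changes are of AKR/J over C57BL/6J. The AKR/J d12 libraries, in which ribosomal protein genes took 7.656% to 18.15% of the reads, enter the d12 values and each interaction test. Their part in these results was not tested. Rpl34-ps1 (adjusted p = 0.0004149) was at 9.59 on d12, 2.17 on d15 and 1.96 on d17, beside Rpl34 at 1.78, 0.11 and -0.05 (adjusted p = 0.08244). Rps15a-ps7 (adjusted p = 0.03011) was at 3.96 on d12, 1.44 on d15 and 0.29 on d17, with Rps15a at 3.39, 0.93 and 0.80 (adjusted p = 0.02934). Rps10-ps2 (adjusted p = 0.03261) was at 2.78 on d12, 0.71 on d15 and 0.37 on d17, beside Rps10 at 0.55, 0.54 and 0.26 (adjusted p = 0.8271). Rps16-ps2 (adjusted p = 0.03904) was at 3.18 on d12, 1.03 on d15 and 0.53 on d17, with Rps16 at 3.04, 1.00 and 0.61 (adjusted p = 0.03216). Rpl38-ps2 (adjusted p = 0.04048) was at 3.74 on d12, 1.27 on d15 and 0.90 on d17, beside Rpl38 at 3.27, 1.2 and 0.97 (adjusted p = 0.05333). Rpl39-ps (adjusted p = 0.04174) was at 4.53 on d12, 1.76 on d15 and 0.89 on d17, with Rpl39 at 3.83, 1.2 and 1.10 (adjusted p = 0.03844). Rps26-ps1 (adjusted p = 0.04373) was at 3.25 on d12, 0.54 on d15 and 0.73 on d17, beside Rps26 at 2.76, 1.03 and 0.89 (adjusted p = 0.05947). Rpl22-ps1 (adjusted p = 0.04373) was at 5.24 on d12, -0.65 on d15 and 1.33 on d17, with Rpl22 at 2.99, 0.74 and 0.56 (adjusted p = 0.03147). The parents Rps15a, Rps16, Rpl39 and Rpl22 were called in the same test, and Rpl34, Rps10, Rpl38 and Rps26 were not. Whether a copy changed with the day more than its parent was not tested.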

How the results depend on the processing

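Counts of called copies depended on the filter, on d12 and, for days, on single libraries. With at least 10 reads in every library, 13 of 14 copies tested were called in AKR/J over C57BL/6J, 10 of 13 in Cav1-null over C57BL/6J and 16 of 20 in AKR/J over Cav1-null, against 55, 30 and 40, where 60.7%, 58% and 37% of all genes tested were called. Without d12, 26 were called in AKR/J over C57BL/6J and 12 in AKR/J over Cav1-null, where Rpl38-ps2 turned to -0.0276. For AKR/J d17 over d15, with 3 calls, library sizes alone and no filter gave 1 each and 1 model of all libraries gave 0. For C57BL/6J d15 over d12, with 1 call, DESeq2 gave 3, no filter 2, at least 10 reads in every library 0 and 1 model 2, and for C57BL/6J d17 over d15, with 0 calls, DESeq2 gave 2, no filter 1 and 1 model 2. For Cav1-null d17 over d15, with 2 calls, 1 model gave 0. For strain by day, with 8 calls, DESeq2 gave 25, no filter 15 and 1 model 23. The cause of these shifts was not tested. The share of all genes called is given for the main fits, the stricter filter and, in part, the fits without d12. For the other alternatives, and for the fits without a single library here and above, it is not given. Those counts therefore show the spread of calls and nothing particular to the copies.

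Leaving out each library in turn gave 48 to 60 calls in AKR/J over C57BL/6J, 24 to 37 in Cav1-null over C57BL/6J, 36 to 54 in AKR/J over Cav1-null, 15 to 55 in AKR/J d15 over d12, 0 to 6 in AKR/J d17 over d15, 0 to 4 in C57BL/6J d15 over d12, 0 to 4 in C57BL/6J d17 over d15, 0 in Cav1-null d15 over d12, 0 to 2 in Cav1-null d17 over d15 and 1 to 30 in strain by day. Over all alternatives, single results of the named copies stayed on the same side of the threshold in 942 cases, lost their call in 59, gained it in 1 and reversed in 1.

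The replicate numbers did not pair the samples, since in 0 of 15 pairs of groups was every same-numbered correlation over 0.1 (range -0.368 to 0.301). With the replicate block, 1 copy was called in AKR/J d17 over d15, 0 in C57BL/6J d15 over d12 and 1 in strain by day, and the counts of the other comparisons stayed within 1.5 times, for example 50 in AKR/J over C57BL/6J and 26 in AKR/J d15 over d12. Depth limits the weaker copies, as 59 of the 83 had a mean below 1 CPM.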

Other observations

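Rps10-ps2, on chr16:20640895-20641390, took a large share of the joint reads with its parent in each strain. Its share was 59.9%, 32.9% and 69.2% in the AKR/J d12 libraries, 25.1% to 31.8% in the AKR/J d15 and d17 libraries, 17.6% to 33.8% in C57BL/6J and 26.1% to 37.4% in Cav1-null libraries. In the first and the third AKR/J d12 libraries the copy, at 28.7 and 23.6 CPM, was above Rps10, at 19.2 and 10.5 CPM, which was at 4.92 to 19.2 CPM over the 27 libraries.

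Rpl19-ps11, with 1 mismatch to the large subunit gene Rpl19, differed between the AKR/J d17 libraries. Its share was 1.67% in the first and 0.518% and 0.560% in the other two, beside 1.44% to 2.11% on d12 and d15 of AKR/J, 0.579% to 0.892% in C57BL/6J and 0.550% to 1.14% in Cav1-null libraries. Rps19-ps3 showed a share of 0.154%, 0.481% and 0.183% in the AKR/J d12 libraries and 0.9495% to 1.242% on d15 and d17, while its level stayed at 4.31 to 5.94 CPM in the 9 AKR/J libraries.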
